A study of Diospyros lotus with 24 samples.

Results

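The 200 contigs described here were those whose level differed most from tree to tree among the progeny of 1 persimmon cross. They were taken from the bud mRNA counts of 17 progeny of Diospyros lotus. A contig needed a mean level between 10 and 200 CPM, that is, counts per 1000000 counts of the library. It also had to hold at least 3 counts in every one of the 17 trees. Of 417827 assembled contigs, 22151 passed these limits, and the 200 with the highest SD of log2(CPM + 0.5) over the 17 trees were kept, without use of sex or of the parents. The spread between trees therefore chose these members, and it is given as a description with no test.

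Diospyros lotus is a dioecious tree, with male and female flowers on separate individuals, and its males carry a Y chromosome. Full siblings of a cross can differ at any locus at which a parent is heterozygous, and the level of a transcript in a sibling can follow the alleles nearby or those of a distant regulator. It can also follow the stage and state of the tissue collected, so that transcripts of one process move together from tree to tree.

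Buds were collected from 8 sons and 9 daughters of the KK family and from the parents, 1 father and 1 mother, both Kunsenshi, with 1 mRNA library per tree. Another son, son 5, held 387 counts and was left out. Bud small RNA was sequenced from the father and the mother, 1 library each. The labels name 2 collection dates in early summer and tie none of the libraries to either date, so date and tree, and possibly date and sex, cannot be told apart.

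Sons held 5823321 to 15314430 counts (median 7386283.5) and daughters held 3527282 to 6963244 (median 4963400). The father held 6840388 and the mother 6925001. Sons and daughters are numbered in the order of their records, so the numbers carry no meaning. No gene names or sequences are paired with the contigs in the files, and none of the contig names matched a table of 27971 annotated genes, so no roles can be given to the members and the tissue could not be checked against marker genes. Whether several members are pieces of one transcript, or allelic copies of one gene assembled apart, was not tested.

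The SD of the members ran from 1.01 to 2.91 log2 units with a median of 1.33, against a median of 0.26 over the 22151 contigs. The highest tree exceeded the lowest by 7.44-fold to 345-fold in the members, with a median of 25.5-fold, against a median of 1.97-fold over all contigs that passed. Counting error alone would give these members an SD of 0.075 to 0.43 log2 units, and in all 200 the measured SD was more than 2 times that. The members were chosen for a high SD, none below 1.006, so this count follows from the choice and is no check of it. The last 2 members in order of SD had 1.01 and 1.006, and the next 2 contigs, just outside, both had 1.004. Contig length had a median of 1443.5 bases in the members and of 1412 bases over all that passed.

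The members held stepped and smooth variation side by side. Each was classed by the widest gap between neighbours when its 17 values were sorted: a gap of at least 1 log2 unit, 2-fold, set off 1 tree, 2 trees, or 3 or more trees on each side. The last class, with trees on 2 separate levels, held 91 members, which was 45.5% of the 200, against 0.470% of all contigs that passed. A further 68 members were graded, with no such gap, against 99.0% of all that passed. The balance of these classes rested on the limits set: 116 members were graded when a gap of 1.5 log2 units was asked for, and 121 of the 200 chosen with at least 10 counts in every tree were graded. In 15 members a single tree lay low (0.361% of all that passed), in 8 a single tree lay high (0.0813%), and in 18 a pair of trees stood apart (0.131%), always on the low side. A wide gap raises the SD, so the members' shares follow in part from how they were chosen. The lower limit on the mean level also makes a contig with few high trees less likely to pass. Two-level members had a median SD of 1.55 and graded members one of 1.15.

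The 3 members of highest SD were all of the two-level class. Contig188237, 7722 bases long, had 1.75 CPM in the father and 98.1 CPM in the mother, and among the progeny it lay at 0.484 to 2.98 CPM in 6 trees and at 72.0 to 163 CPM in the other 11. The father was thus with the low trees and the mother with the high ones. Contig311061, 2670 bases long, had 1.17 CPM in the father and 83.9 CPM in the mother, and lay at 0.604 to 1.93 CPM in 8 progeny and at 40.9 to 84.9 CPM in 9. The parents again fell on opposite levels. Contig262189, 259 bases long, had 68.0 CPM in the father and 55.0 CPM in the mother, and lay at 1.502 to 2.26 CPM in 6 progeny and at 19.3 to 231 CPM in 11. Both parents were high for it, and its high level was broad, with 19.3 CPM in son 6 and 31.96 CPM in daughter 4, the next tree above.

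**Figure D1:**
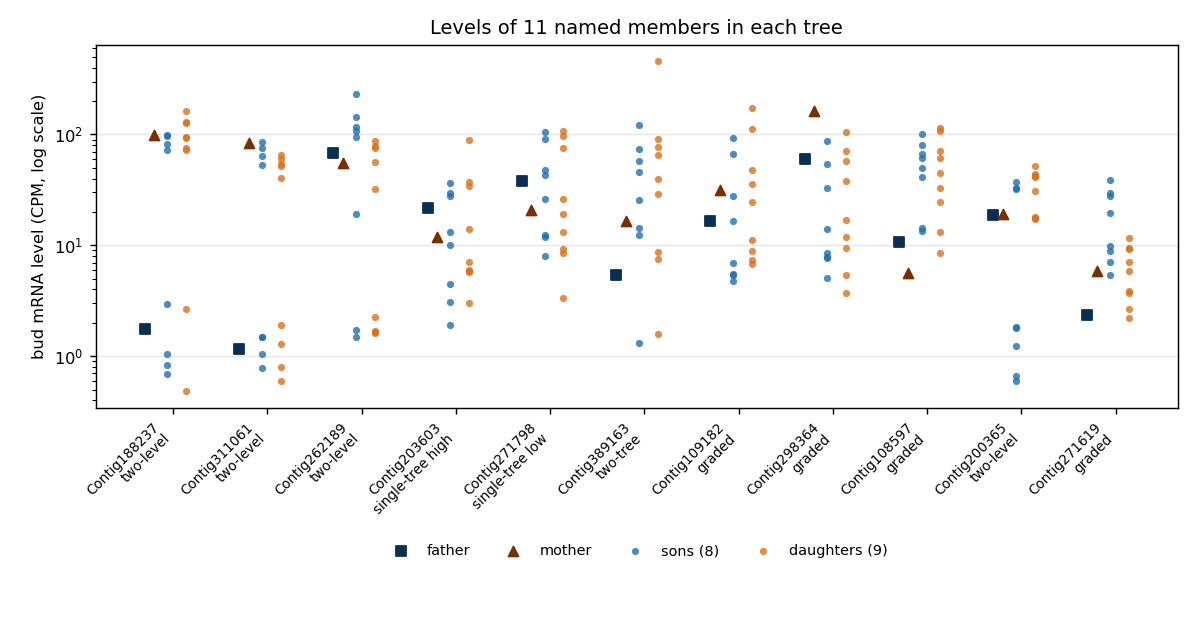
Bud mRNA level of 11 named members in CPM on a log axis, with 1 point per library: the father (square), the mother (triangle), 8 sons and 9 daughters. Contig188237, Contig311061 and Contig200365 fall on 2 levels with an empty zone between them, while Contig109182 and Contig108597 fill their range, and in Contig188237 the father (1.75) and the mother (98.1) sit on opposite levels.

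Over the 91 two-level members the gap itself ran from 1.02 to 4.38 log2 units (median 1.82). The medians of the levels differed by 1.99 to 6.06 (median 3.24). The number of trees on the higher level ran from 5 to 14 of 17. It was 9 in 15 members, 10 in 10, 11 in 15, 12 in 14, 13 in 13 and 14 in 14. It was 8 in 1 member, and in 3 members each it was 5, 6 and 7. The class itself asks for 3 or more trees on each side. A contig low in most trees reaches a mean of 10 CPM less readily, so these numbers follow in part from the limits. Every tree was on the higher level in some members and on the lower in others: the count of members with a tree high ran from 45 in son 8 to 71 in daughter 4.

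The two-level members sorted the trees in many different ways. They made 66 distinct splits of the 17 trees, of which 13 were shared by more than 1 member, and these shared splits held 38 members. Splits that differed in a single tree were counted as distinct, and members of 1 coexpressed block could fall into different splits. The 66 is therefore not a number of unrelated patterns. The most frequent, in 6 members, put sons 1, 3, 7 and 9 and daughters 1, 2, 3, 4 and 8 on the higher level, and in all 6 the father was low and the mother high. The next, in 5 members, had sons 1, 2, 4 and 8 and daughters 6 and 8 low. There, by the closer side of the gap, the father was low and the mother high in 3 and both were low in 2. The mother reached the higher level only in Contig188237 and lay between the levels in the others, so these are not 2 clear states of the mother. A split in 4 members had daughters 2, 7, 8 and 9 low, with all 8 sons high. By the side of the gap to which each parent was closer, both parents were high in 2 and the father alone in 2. In all 4, however, the father lay between the levels, and neither parent reached the higher level. Another, also in 4 members, had sons 1, 4, 7, 8 and 9 low and all 9 daughters high, with both parents high in all 4. The 4 contigs that were low in daughters 2, 7, 8 and 9 were all short, 223 to 315 bases, whereas the 6 of the first split ran from 766 to 6344 bases. No split was the mirror image of another.

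The parents had no part in these classes, and each was placed on the side of the gap to which its level was closer. Both parents lay on the higher side in 36 of the 91 two-level members. The father lay high and the mother low in 14, the father low and the mother high in 25, and both lay low in 16. Where both parents were high, the median number of progeny on the higher level was 13 of 17 (range 11 to 14). It was 10 (6 to 13) where the father alone was high, 9 (5 to 13) where the mother alone was high, and 10.5 (5 to 13) where both were low. All 36 members with both parents high had at least 11 progeny high, as did 5 of the 14, 7 of the 25 and 8 of the 16 in the other sets. These are descriptions with no test, since splits are shared and the members are not independent.

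A parent did not always fall on a level of the progeny. The father lay between the levels in 25 of the 91 members and the mother in 32. The father lay within the higher level in 32 and above it in 4, and within the lower level in 20 and below it in 10. The mother lay within the higher level in 36 and above it in 3, within the lower level in 12 and below it in 8. In 48 members neither parent lay between the levels. Of these, both were high in 22, the father alone in 9, the mother alone in 10, and both were low in 7. The median number of progeny on the higher level in these 4 sets was 12.5, 10, 9 and 9. Over all contigs that passed the limits, the parents' values minus the progeny median had a median of -0.345 log2 units in the father and -0.346 in the mother. With each parent shifted up to cancel it, a choice made after seeing the data, the 4 sets held 39, 13, 25 and 14 members.

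**Figure D2:**
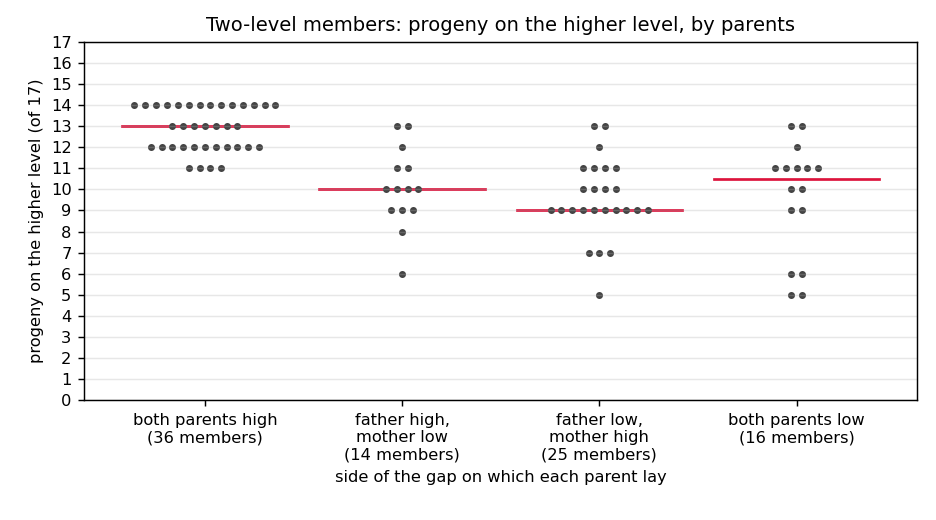
Number of the 17 progeny on the higher level (vertical axis) for each of the 91 two-level members (1 point each), grouped by the side on which each parent lay, with the median of each set as a line. Members with both parents high sit at 11 to 14 progeny, and the other 3 sets reach down to 5 or 6.

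Members with 1 or 2 trees apart were fewer. Of the 15 members with a single low tree, daughter 4 was that tree in 6, daughter 2 in 5, daughter 1 in 2, and son 2 and daughter 7 in 1 each. Over all 80 such contigs that passed the limits, daughter 4 was low in 29, daughter 1 in 17 and daughter 2 in 12. These libraries held 5382502, 3527282 and 4940839 counts. Daughters 7 and 8, with 4655625 and 4841662 counts, were the low tree in 1 and 3. The part of depth in this class was not tested. Daughters 1, 2 and 4 were then left out, a choice made after seeing the data. The 200 members gave 15 with a single low tree and 7 with a single high tree. They gave 25 with a pair of trees apart, against 18, and 85 of the two-level class, against 91. Daughters 1, 2 and 4 were the low tree in most of the earlier 15. The equal count therefore does not show that the same members kept the class.

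Daughter 5 was the single high tree in 4 of 8 members, son 4 in 2, and daughters 4 and 9 in 1 each. Contig203603, 952 bases, had 21.9 CPM in the father and 12.0 CPM in the mother, and 88.2 CPM in daughter 4 beside 1.93 to 37.0 CPM in the other 16 progeny. Contig271798, 276 bases, had 38.3 CPM in the father and 20.9 CPM in the mother, and 3.34 CPM in daughter 4 beside 7.98 to 108 CPM in the other 16. In both, the single tree lay beyond a range that was itself wide. Among the 18 members with a pair of low trees, the pair was son 3 with daughter 3 in 4 and son 3 with son 8 in 3. Contig389163, 7348 bases, had 5.41 CPM in the father and 16.6 CPM in the mother, and among the progeny 1.33 CPM in son 9, 1.58 CPM in daughter 9 and 7.52 to 459 CPM in the others. Contig109182, 1691 bases, had the highest SD of the graded members, 1.66. It had 16.7 CPM in the father and 31.5 CPM in the mother, and its progeny spread without a gap of 2-fold between 4.79 CPM in son 9 and 172 CPM in daughter 4.

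Groups of members moved together from tree to tree. Over the 19900 pairs of members the median Pearson r of log2(CPM + 0.5) was -0.0035. It was at least 0.7 in 431 pairs and at least 0.9 in 156, and at most -0.7 in 297 pairs and at most -0.9 in 20. Average-linkage clustering down to a mean r of 0.7 gave 9 blocks of 5 or more members, with 69 members in all. Another 95 members fell into 37 smaller groups and 36 stood alone. The points of each r are 17 libraries that share depth and preparation, so these values describe the blocks and carry no p.

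**Figure D3:**
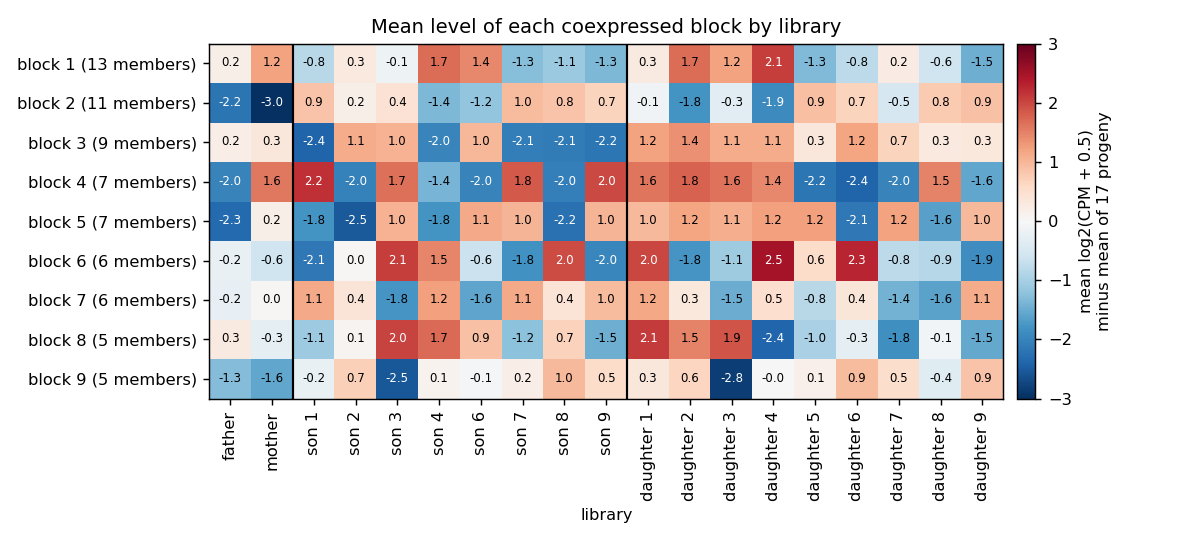
Mean level of the members of each coexpressed block in each library, as log2(CPM + 0.5) minus the mean of the 17 progeny (colour and printed value), with the parents at the left, then sons, then daughters. Blocks 1 and 2 run opposite to each other across the progeny, block 3 is low in 5 sons and above 0 in all daughters, and blocks 4 and 5 take 2 levels, with the father low in both.

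The largest blocks were a mirrored pair. Block 1 held 13 members (mean r 0.84), 9 of them graded, and block 2 held 11 (mean r 0.80), 7 of them graded. The block means had an r of -0.95 with each other over the progeny, and of the 297 strongly negative pairs 121 joined one block to the other, out of 143 possible pairs. Block 1 was high in daughter 4 (2.08 log2 units above the progeny mean), daughter 2 (1.67), son 4 (1.66), son 6 (1.45) and daughter 3 (1.204), and lowest in daughter 9 (-1.45). Block 2 was lowest in daughter 4 (-1.92), daughter 2 (-1.79), son 4 (-1.35) and son 6 (-1.18). Both sexes lay on both sides. Without daughter 4, the most extreme tree, the mean r was 0.82 in block 1 and 0.80 in block 2. The members were kept as clustered with daughter 4 included, so these values follow in part from how the blocks were made.

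The parents broke this mirror. Block 2 was lower in both than in any of the progeny, at -2.20 in the father and -2.99 in the mother, while block 1 was at 0.19 in the father and 1.198 in the mother, within the progeny range. In block 2, 3 of 11 members lay below all progeny in the father and 9 of 11 in the mother. Over all contigs that passed the limits, 39.5% lay below in the father and 40.1% in the mother, so the father's 3 of 11 was not above that share. The member most like the rest of block 1 was Contig298364 (959 bases). It had 59.6 CPM in the father and 164 CPM in the mother, against 5.06, 11.3 and 86.8 CPM as the lowest, median and highest of the sons and 3.73, 16.8 and 105 CPM in the daughters. Only the mother lay above every progeny tree. That of block 2 was Contig108597 (1528 bases), with 10.7 CPM in the father and 5.63 CPM in the mother, against 13.5, 55.4 and 101 CPM in the sons and 8.55, 45.4 and 114 CPM in the daughters. Only the mother lay below every progeny tree.

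Block 3, with 9 members and a mean r of 0.92, had the widest difference between the sexes' means of the 9 blocks, and its sexes overlapped. It was low in sons 1, 4, 7, 8 and 9 (-2.40 to -1.99) and high in sons 2, 3 and 6 and all 9 daughters (0.29 to 1.36). Sons averaged -0.95 ± 1.66 and daughters 0.84 ± 0.44 (SD, n = 8 and 9). Within the sons the mean r of its members was 0.94 and within the daughters, all on 1 level, 0.57. Contig200365, 2748 bases and the most like the rest, had 18.9 CPM in the father and 19.1 CPM in the mother, and among the progeny 0.596 to 1.85 CPM in the 5 low sons and 17.1 to 51.4 CPM in the other 12 trees. Its male-over-female log2 fold change was -1.32 (SE 0.74, adjusted p = 0.772, edgeR quasi-likelihood test).

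Blocks 4 and 5 had the widest gaps between levels of the 9 blocks, and in both the father was low. Block 4 (7 members, mean r 0.91, all of the two-level class) had 9 trees high and 8 low, with a gap of 2.83 log2 units between them. The father lay at -1.998 and the mother at 1.58. Sons averaged 0.02 ± 2.03 and daughters -0.02 ± 1.92. Block 5 (7 members, mean r 0.90) had 11 trees high and 6 low, with a gap of 2.61. The father lay at -2.34, with the low trees, and the mother at 0.18, between the levels. Of the 6 low trees 4 were sons. Contig311061 was the member most like the rest of block 4 and Contig188237 that of block 5, with the levels given above.

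The other blocks were smaller. Block 6 (6 members, mean r 0.88) was highest in daughter 4 (2.49), daughter 6 (2.29) and son 3 (2.08) and lowest in son 1 (-2.14), with the father at -0.23 and the mother at -0.60. Block 7 (6 members, 0.83) was low in sons 3 and 6 and daughters 3, 5, 7 and 8, and its parents lay at -0.24 and 0.03. Block 8 had the tightest correlation, 0.97 over 5 members of 276 to 454 bases. It was lowest in daughter 4 (-2.37), which was the highest tree of blocks 1 and 6. Block 9 (5 members, 0.81) was low in daughter 3 (-2.83) and son 3 (-2.53) and within -0.36 to 0.97 in the other 15 trees. Its mean r fell to 0.70 without daughter 3. Both parents were lower than those 15 trees, at -1.29 in the father and -1.57 in the mother. Daughter 1, with the fewest counts, lay above the widest gap of the block mean in blocks 2 to 9. In blocks 2, 6 and 8 that gap was only 0.68, 0.90 and 0.70 log2 units. Its level in block 2 was -0.11, just below the progeny mean.

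None of the 200 members differed between sons and daughters at an adjusted p under 0.05 in edgeR's quasi-likelihood test over 62831 contigs, in which 0.0159% of contigs were higher and 0.0318% lower in males, 0.0477% in all. Among the contigs that passed the limits it was 0.0451%. At shares this small, 0 of 200 does not set the members apart from other contigs. The wide spread that chose the members also enters the error of this test. DESeq2 and limma-voom also called 0 of the 200. At an unadjusted p under 0.05 edgeR had 17 of the 200, 8.5%, against 7.08% of all contigs tested. Each tree is a separate individual with 1 library, so these p-values measure the spread between trees. In no member did all sons lie above all daughters (0.0181% of the contigs that passed the limits) or below them (0.0271%).

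None of the 91 two-level splits followed sex. In 11 members all 8 sons were on the higher level and in 8 members all 9 daughters were. In no member were all trees of a sex on the lower level. A contig low in many trees meets the limits on mean level and counts less readily, and the part of that in these counts was not tested. The smallest p of a contig higher in males was that of Contig271619 (248 bases), with 5.42, 14.8 and 38.8 CPM as the lowest, median and highest of the sons, against 2.23, 5.87 and 11.6 CPM in the daughters. Sons 1, 7, 8 and 9 had 29.5, 38.8, 19.6 and 27.7 CPM and lay above all daughters, and the other 4 sons overlapped with them. The father had 2.34 CPM and the mother 5.92 CPM. Its log2 fold change was 1.57 (SE 0.45, unadjusted p = 0.0028, adjusted p = 0.452 in edgeR's quasi-likelihood test). In the other direction Contig185281 (4612 bases) had 2.20, 4.97 and 25.5 CPM in the sons, against 4.54, 20.99 and 40.9 CPM in the daughters. The groups overlapped broadly, and its log2 fold change was -1.30 (SE 0.51, unadjusted p = 0.0219, adjusted p = 0.620 in the same edgeR test). Its level in both parents was below that of every progeny tree, at 1.75 CPM in the father and 1.59 CPM in the mother.

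The parents lay within the progeny range for most members. Both did so for 149 of 200, 74.5%, against 39.4% of all contigs that passed the limits; a wide progeny range, which chose the members, makes this more likely. The father lay above all 17 progeny in 9 members (9.51% of all that passed) and below them in 20 (39.5%). The mother lay above in 8 (8.77%) and below in 27 (40.1%). Both were above in 3 (5.84%) and both below in 8 (31.4%). Generation cannot be told apart from whatever else differed between 2 parent trees and their progeny, and there is 1 library per parent.

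The parents stood apart from each other at many of these contigs. The father and the mother were at least 2-fold apart, on the log2(CPM + 0.5) scale, in 82 of the 200 members (41%), against 2.80% of the contigs that passed the limits. The father was the higher in 34 and the mother in 48. The parents' values were not used to choose the members. By class, 42 of 91 two-level, 26 of 68 graded, 5 of 18 pair-of-trees, 6 of 15 single-low and 3 of 8 single-high members were 2-fold apart. The difference of father minus mother ran from -5.66 to 5.62 in the members, with a median absolute size of 0.76, against 0.23 over all that passed. With 1 library per parent this has no replicate check.

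**Figure D4:**
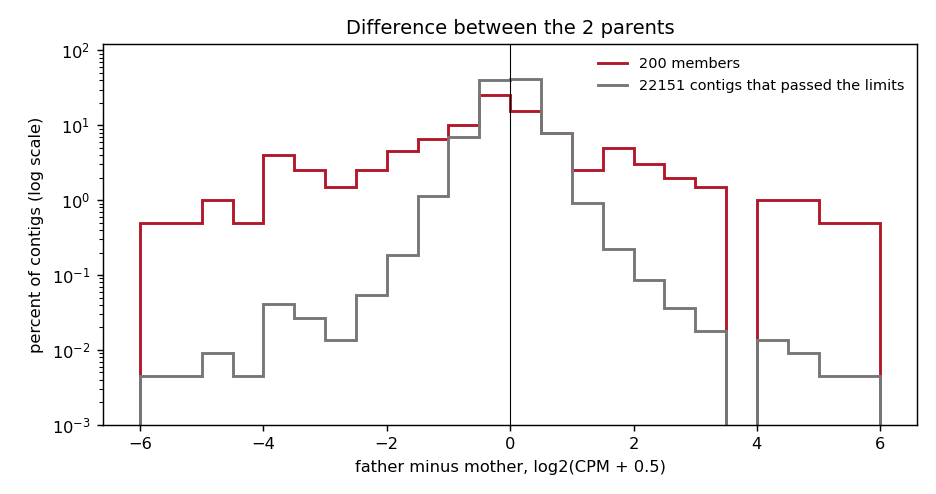
Father minus mother in log2(CPM + 0.5) on the horizontal axis, and the percent of contigs in each bin of 0.5 on a log axis, for the 200 members and the 22151 contigs that passed the limits (bins with no contig are left blank). Beyond 1 log2 unit on either side the members' line lies above the other in every bin that holds contigs, and 41% of members lie there against 2.80%.

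Set against the progeny as a group, 13 of the members were called: 2 were higher in the parents and 11 lower at an adjusted p under 0.05 in edgeR's quasi-likelihood test with sex as a term. Over the 63600 contigs tested 16.2% were higher and 13.7% lower in the parents, 29.9% in all, and among the contigs that passed the limits it was 38.5%. At an unadjusted p under 0.05 there were 28 members, 14%, against 40.3% of all contigs tested. A wide spread over the progeny, which chose the members, enters the error of this test and makes a call less likely. The lower shares are therefore not read as a smaller difference between generations. The median log2 fold change was -0.37 in the members, against -0.17 over the contigs that passed the limits and -0.004 over all contigs tested. Of the 11 lower members 6 were in block 2. These counts turned on the tool: DESeq2 gave 1 higher and 21 lower, limma-voom 7 higher and 0 lower, and with the father or the mother left out edgeR called 1 member higher, Contig318240, and 0 lower.

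Contig318240 (468 bases) had 183 CPM in the father and 180 CPM in the mother, against 112 CPM in daughter 5 and 4.45 to 23.8 CPM in the other 16 progeny. Both parents were therefore above every progeny tree, and the log2 fold change of parents over progeny was 3.74 (SE 0.66, adjusted p = 0.000484 in edgeR's quasi-likelihood test). Contig239493 (311 bases, block 1) had 31.3 CPM in the father and 54.3 CPM in the mother, against 1.41, 6.40 and 49.6 CPM as the lowest, median and highest of the progeny. The father lay inside that range and the mother above it, with a log2 fold change of 2.18 (SE 0.74, adjusted p = 0.0341, edgeR).

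Contig274550 (306 bases, block 2) had 2.49 CPM in the father and 0.578 CPM in the mother, from 17 and 4 counts, against 1.86, 31.3 and 49.2 CPM in the progeny. The lowest of these was daughter 4, and the next tree had 7.29 CPM. Its log2 fold change was -3.99 (SE 1.11, adjusted p = 0.0124, edgeR). Contig301220 (1269 bases) had 1.9005 CPM in the father and 0.289 CPM in the mother, from 13 and 2 counts, against 4.62, 19.7 and 65.2 CPM in the progeny. Both parents lay below every tree, with a log2 fold change of -4.25 (SE 1.19, adjusted p = 0.0126, edgeR). For both contigs limma-voom missed the threshold, with adjusted p-values of 0.257 and 0.219.

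Bud small RNA, counted on the same contigs in the parents, had a higher median density on the members than over all contigs that passed the limits. Small RNAs of plants include the microRNAs and the short interfering RNAs that direct the silencing of transcripts and of repeated DNA. The father's library held 14168901 counts and the mother's 19315399. The mean of both, per kilobase of contig, had a median of 1.15 CPM per kb in the members (quartiles 0.39 and 4.04), against 0.453 over all contigs that passed. It exceeded that 0.453 in 143 of 200 members, 71.5%, against 50.0% by construction. It was at least 10 CPM per kb in 18 members, 9%, against 3.65% of all that passed. Small RNA of the progeny was not analysed here.

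By class, the density was above the median of all that passed in 8 of 8 single-high members, 13 of 15 single-low, 11 of 18 pair-of-trees, 72 of 91 two-level and 39 of 68 graded members. By block the median density was lowest in block 1, at 0.28 CPM per kb, and highest in block 8, at 8.52 CPM per kb, with 7.90 in block 6. Contig318240 had the most small RNA per kilobase of all members, 643 CPM per kb in the father and 433 in the mother, from 4261 and 3911 counts. The father-to-mother ratio of CPM was 1.49 (exact 95% interval 1.42 to 1.55, counting error only).

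**Figure D5:**
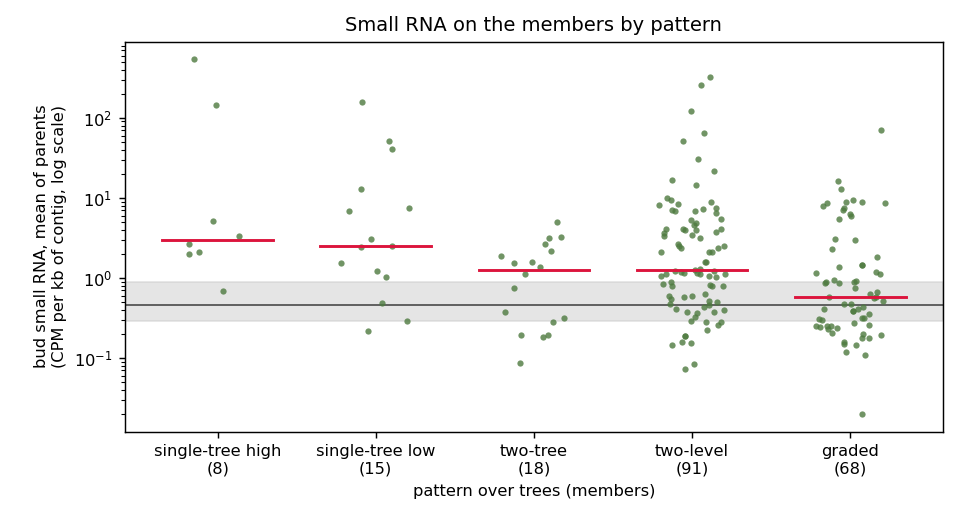
Bud small RNA on each member (1 point each) as the mean of both parents in CPM per kilobase of contig on a log axis, by class of variation over the trees, with each class's median as a red line; 1 member at 0 is drawn at 0.02. The grey line and band are the median (0.453) and quartiles (0.286 to 0.880) of the 22151 contigs that passed the limits, and all 5 class medians lie above that line.

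In blocks 4 and 5, where the father was lower than the mother in mRNA, the father was also lower in small RNA. The father-to-mother ratio of summed CPM was 0.72 in block 4 (exact 95% interval 0.66 to 0.77) and 0.72 in block 5 (0.68 to 0.76). Without the contig of most counts it was 0.45 (0.38 to 0.53) in block 4 and 0.68 (0.64 to 0.73) in block 5. Contig188237, of block 5, had 617 small RNA counts in the father and 1329 in the mother, a ratio of 0.63 (0.57 to 0.70). Contig311061, of block 4, had only 22 and 34, a ratio of 0.88 with an interval of 0.49 to 1.55, so it alone showed no clear difference. Over the 25 two-level members with the father low and the mother high, the median log2 ratio of father to mother was -0.39, against 0.28 over all contigs that passed. In 1 of these 25 (4%) the exact 95% interval lay wholly on the father's side, against 9.63% of all contigs that passed, and in 12 (48%) wholly on the mother's, against 4.96%. Over the 14 members with the father high and the mother low, the median was 0.31, with 2 intervals on each side. Where both parents were high, 2 of 36 lay on the father's side and 8 on the mother's, and over all 200 members 24 and 39 did. Contigs with more small RNA counts have narrower intervals, and the part of that in these counts was not tested.

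Block 8 had the largest difference between the parents in small RNA. Its 5 short contigs had 105 counts in the father and 1190 in the mother, a ratio of CPM of 0.12 (0.098 to 0.147), and 0.18 (0.15 to 0.23) without the contig of most counts. In mRNA the parents were close, at 0.27 in the father and -0.28 in the mother relative to the progeny mean. Contig271798, its single-low member, had 19 small RNA counts in the father and 411 in the mother. Block 6 went the other way, with 12044 counts in the father and 5190 in the mother, but 1 contig, Contig313479, chosen here for its counts after they were seen, held most of them. Without it the ratio was 1.18 (1.07 to 1.29), against 3.16 with it. The median log2 ratio over all contigs that passed was 0.28, also on the father's side, so the 1.18 does not set block 6 apart.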

How the data were processed

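The authors deposited raw read counts per de novo assembled contig, whole numbers in 1 column per library, for bud mRNA (417827 contigs) and for bud small RNA of the parents (421126 contigs, with contig lengths). BWA, DESeq 1.14 and R 3.0.1 appear in the submitters' processing notes. How reads were assigned to contigs, multi-mapped reads included, and whether strand was used is not given in the sources used here. Groups came from the labels. Son 5 (387 counts) was left out, no other library had counts within sampling noise of another's, and 2 flower small RNA libraries were not analysed here.

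CPM used library totals, and logs a pseudocount of 0.5. Members, lists and rules were chosen with earlier results of these data known. Sex was tested over 17 progeny, and parents against progeny over 19 libraries with sex as a term, with edgeR 4.0.16 in R 4.3.3 (with limma 3.58.1). The settings were filterByExpr, TMM, a robust quasi-likelihood fit, and p-values adjusted by Benjamini-Hochberg over all contigs tested (threshold 0.05). The fits and classes were tested on simulated data. DESeq2 1.42.0, limma-voom, other scalings, filters, gaps, correlations and leave-one-out fits were alternatives. Small RNA ratios have exact conditional 95% intervals, which cover counting error only, since no molecular identifiers were used in counting. Named contigs are the 3 of highest SD, the highest SD of each class, the member most like the rest of each of the 5 largest blocks, the smallest p-values of each test and the contig with most small RNA per kilobase.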

Additional observations from a re-analysis of the deposited data

Results flagged for a closer look

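Of 50 groups of trees examined, 3 held a tree set far from the others of its sex. Chance flags about 1 in 20 groups that were not chosen for their spread. These contigs were chosen for their spread over the same trees, so the flags are a description and are not read against that share. In block 9, son 3 (-2.533, mean log2 level minus the progeny mean) stood below the other sons and daughter 3 (-2.832) below the other daughters. For Contig274550, daughter 4 (1.858 CPM) stood below the other daughters.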

How the results depend on the processing

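For the contigs named by the sex test or the parent test, no fold change turned sign under the alternatives run. The other named contigs were not followed in this way. Counts shifted between directions and classes. Of the 200 members, 114 were kept with at least 10 counts in every tree, 60 with no minimum count, 118 by the median absolute deviation, and 181 to 191 without 1 tree. With a gap of 1.5 the classes held 3 single-high, 8 single-low, 59 two-level and 116 graded members, so graded members were then the majority. A gap of 0.75 gave 25 graded. With at least 10 counts the newly chosen 200 held 5 single-high, 8 pair-of-trees, 50 two-level and 121 graded members. An r of 0.6 gave 14 blocks with 111 members, and leaving out 1 tree gave 9 to 12 blocks with 69 to 88.

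No alternative called a member by sex. Over all contigs, 30 were called, 94 by DESeq2, 414 without a filter, and 24 to 68 without 1 tree, with 68 without daughter 9. For parents against progeny, DESeq2 called 1 member higher and 21 lower, limma-voom 7 and 0, and no filter 1 and 4, and leaving out the father or the mother 1 was higher and 0 lower, against 2 and 11 in edgeR with both. The side with more calls thus turned with limma-voom and with 1 parent left out. Of the 13 members called, 12 were among DESeq2's 22 and 2 among limma-voom's 7; DESeq2 gave Contig318240 no adjusted p. With a margin of 1 log2 unit, the father lay outside the progeny range in 5 members, against 29 with none, and the mother in 11, against 35. The causes were not tested. Small RNA exceeded the median in 133 members as CPM not per kilobase, and in 130 of 165 with at least 10 counts. The parents' shift and the classes without daughters 1, 2 and 4 were added after seeing the data. No paired analysis was possible because the numbers of sons and daughters only name trees. With 1 library per parent, values that rest on a parent have no replicate check.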
